A study of Mus musculus with 8 samples.

Results

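Of the 53801 genes in the count table, 10 encode CXC and CX3C chemokines or their receptors and are described here: the ligands Cxcl14, Cxcl1, Cxcl10, Cxcl12, Cxcl13, Cxcl16 and Cx3cl1, and the receptors Cx3cr1, Cxcr4 and Ackr3. They were measured by bulk RNA sequencing of mouse dorsal root ganglia, the clusters of sensory neuron cell bodies beside the spinal cord, after ligation of a spinal nerve. Cxcl14 was chosen by its day 3 ratio of injured to uninjured side, so that ratio is given as a description and no test that includes day 3 is read for it. The other 9 genes were chosen as relatives of Cxcl14, with earlier results of these data known.

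The animals were male C57BL/6J mice, per the labels, and no source used here gives their age. In the injured group the left L4 spinal nerve was tied tightly with silk, and the left L3, L4 and L5 ganglia were collected 1, 3 or 7 days later, so each injured library also holds 2 ganglia whose own nerve was not tied. The contralateral group is the right L3 to L5 ganglia of the operated mice at the same days. The no injury group is the left and the right ganglia of mice labelled as having no injury. The titles of the no injury libraries also hold the label WT, which the titles of the operated libraries do not. Each of the 8 libraries holds the pooled ganglia of 3 mice, so the injured and contralateral groups have 1 library a day and no replicate at any day. A sham operation is described in the protocol, but no library is labelled as sham.

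Chemokines are small secreted or membrane-bound proteins that steer the movement of cells carrying the matching receptor. CXC ligands act mostly on neutrophils, lymphocytes and progenitor cells, whereas the single CX3C ligand, fractalkine (Cx3cl1), is tethered to the cell surface and can be shed. In dorsal root ganglia, chemokines are known from neurons, glia, vessels and macrophages, and several have been studied in neuropathic pain after nerve injury.

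The libraries held 20488115 to 21652688 counted reads, and levels are given as CPM, counts scaled to the library total. A count of 0 allows up to 3 reads, or 0.139 to 0.146 CPM. Atf3, a transcription factor induced in axotomised neurons, was at 463.5 to 629.2 CPM in the injured libraries, 110.1 to 166.9 CPM in the contralateral ones and 10.89 and 10.99 CPM without injury. Sprr1a, a further injury gene of sensory neurons, was at 9.13 to 915.1 CPM, 3.52 to 129.8 CPM and 0.145 and 0.323 CPM in the same groups. The contralateral libraries therefore do not equal the no injury libraries for these injury genes. The no injury libraries held 4931 and 4129 reads of Xist, the RNA of the inactive X chromosome, and no read of the Y-linked Kdm5d, against at most 3 reads of Xist in every operated library. This goes against the male label for the no injury pool, and comparisons with that pool cannot be told apart from this difference. The contralateral day 1 library stood apart for neutrophil and marrow genes: 12 neutrophil genes summed to 535.2 CPM there, against 26.7 to 295.5 CPM in the other 7 libraries. Ly6g and Csf3r were exceptions among the 12. Ly6g was at 0.704 CPM there and 4.73 CPM in the injured day 7 library, and Csf3r at 4.37 CPM there and 4.53 CPM in the left no injury library.

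The promoters of Cxcl14, Cxcl10 and Cxcl1 are shown because each holds a match to a motif of the interferon or NF-kappa-B pathway. Lists of interferon-induced genes and of NF-kappa-B feedback genes and inducers are given further on. Each line is the 250 bases before the RefSeq transcription start, 5′ to 3′ on the gene's own strand, in GRCm38.p6, at chr13:56296552-56296801 on the minus strand for Cxcl14, chr5:92348890-92349139 on the minus strand for Cxcl10 and chr5:90890995-90891244 on the plus strand for Cxcl1. Capitals mark the matches.
Cxcl14: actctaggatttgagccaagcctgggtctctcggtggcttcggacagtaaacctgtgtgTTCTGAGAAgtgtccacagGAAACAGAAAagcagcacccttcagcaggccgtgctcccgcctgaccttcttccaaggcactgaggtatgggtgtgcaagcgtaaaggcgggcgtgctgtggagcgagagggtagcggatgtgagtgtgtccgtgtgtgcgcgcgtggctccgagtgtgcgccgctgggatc
Cxcl10: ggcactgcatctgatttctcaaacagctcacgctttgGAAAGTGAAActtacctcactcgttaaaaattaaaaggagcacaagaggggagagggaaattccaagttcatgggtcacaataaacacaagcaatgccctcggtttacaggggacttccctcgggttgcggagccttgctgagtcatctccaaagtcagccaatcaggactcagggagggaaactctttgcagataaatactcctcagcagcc
Cxcl1: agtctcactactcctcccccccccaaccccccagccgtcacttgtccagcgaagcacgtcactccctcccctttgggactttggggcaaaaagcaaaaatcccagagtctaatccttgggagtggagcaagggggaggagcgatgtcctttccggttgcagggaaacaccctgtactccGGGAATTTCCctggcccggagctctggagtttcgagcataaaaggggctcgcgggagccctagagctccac

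The motifs were searched on both strands from 250 bases before to 50 bases after the start. The interferon-stimulated response element, searched as 2 copies of GAAA spaced by any 2 bases, was in 3.44% of 32851 RefSeq promoters of this length, the gamma-activated site, TTCNNNGAA, in 8.3%, and the kappa-B motif, searched as GGGA and TTTCC spaced by any 1 base, in 0.411%. Cxcl14 held the first as GAAACAGAAA, starting 172 bases before the start, and the second as TTCTGAGAA, starting 191 bases before it, with no overlap between them. Cxcl10 held GAAAGTGAAA 213 bases before its start, and Cxcl1 held GGGAATTTCC 71 bases before its start. RefSeq entries matched 9 of the 10 genes, none for Cxcl16, and the other 6 promoters held none of these letters. A match is a description of the letters and not of a bound site. Wider forms of these motifs were not searched, so a promoter without capitals for a motif may still hold such a form.

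Per kilobase of exon, the order of the genes without injury was led by a receptor. Means in the no injury libraries (n = 2) were 8.996 ± 0.476 (SD) CPM per kilobase for Cxcr4, 5.70 ± 0.850 for Cxcl12, 3.18 ± 0.774 for Ackr3, 2.28 ± 0.687 for Cxcl16, 2.07 ± 0.266 for Cx3cl1, 1.62 ± 0.338 for Cx3cr1, 1.04 ± 0.224 for Cxcl10 and 0.559 ± 0.254 for Cxcl14. The neighbours Ackr3 and Cxcl16, Cxcl16 and Cx3cl1, and Cx3cl1 and Cx3cr1 overlapped within their SDs, while Ackr3 lay above Cx3cl1 and Cx3cr1 by more than theirs. Cxcr4 and Cxcl12 stood apart from each other and above the rest. Cxcl1, at 0.0637 ± 0.0553, and Cxcl13, at 0.0210 ± 0.0296, lay at the limit of detection. In the injured libraries (n = 3) Cxcl14 averaged 7.94 ± 8.24 CPM per kilobase, beside 6.81 ± 2.71 for Cxcr4 and 5.90 ± 0.231 for Cxcl12, and its spread came from the day 3 library.

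**Figure D1:**
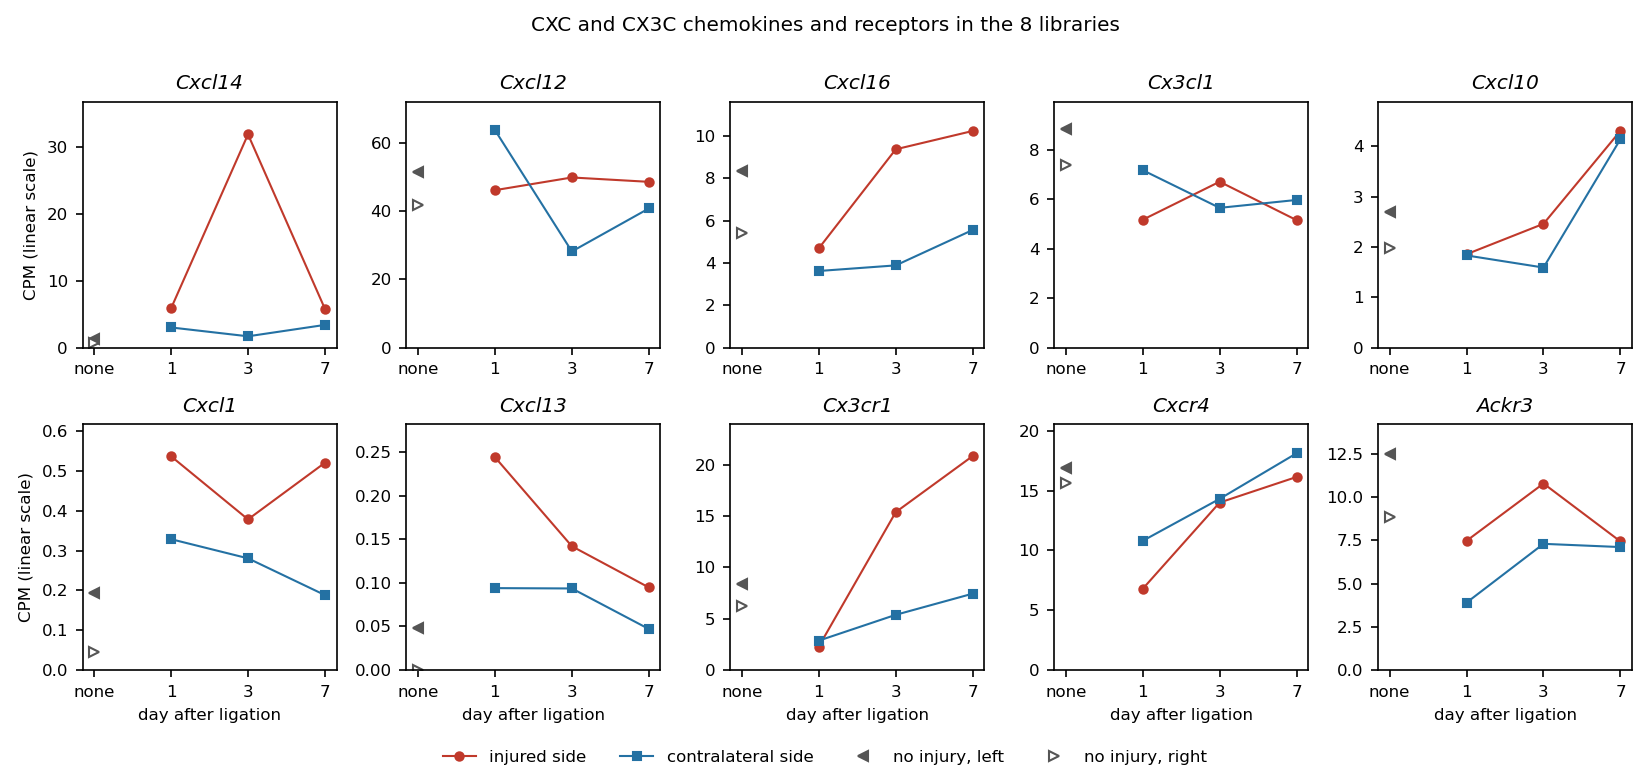
Level of each of the 10 genes (CPM, own linear axis per panel) in the 8 libraries, by day, with 1 point per library: circles for injured, squares for contralateral, triangles for no injury. Lines join the days of a side. Cxcl14 reached 31.9 CPM in the injured day 3 library and at most 5.86 CPM in the others, while Cx3cr1 was highest at injured day 7, at 20.8 CPM.

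Cxcl14, a conserved CXC ligand expressed in epithelia and several other tissues, was low without injury and highest on the injured side. Its level was 5.86, 31.9 and 5.78 CPM in the injured libraries at days 1, 3 and 7, and 3.01, 1.68 and 3.39 CPM in the contralateral ones. Without injury it was 1.35 CPM on the left and 0.693 CPM on the right, from 28 and 15 reads. All 3 injured libraries lay above all 5 others, and the day 3 library, with 674 reads, stood alone. Of 16675 genes, 14.6% had all injured libraries above all contralateral ones, and the share above all 5 others was not counted. For Cxcl14 this order includes the day 3 values that chose it. The gene lies on the minus strand at chr13:56288643-56296551 (GRCm38).

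At day 3 the injured side held 18.9 times the contralateral level of Cxcl14, with a 95% exact interval of 13.5 to 27.3 from counting error only. This is the value that chose the gene, and it is given with no test. By the plain CPM ratio it had rank 3 among 13450 genes with at least 50 reads, behind Hmga2 and Clca3a2, and rank 1 when a prior count of 2 was added to each library. The ratio was 1.95 (1.43 to 2.68) at day 1, rank 136 of 13276 genes, and 1.70 (1.26 to 2.31) at day 7, rank 677 of 13384 genes. Left over right without injury was also 1.95 (1.01 to 3.93), on few reads, so the day 1 and day 7 ratios were of the size seen between the sides without injury. Part of the day 3 ratio lies in its denominator, since the contralateral level was at its lowest there. Against the no injury mean, the injured levels were 5.74-fold, 31.2-fold and 5.66-fold at days 1, 3 and 7, and the contralateral ones 2.94-fold, 1.65-fold and 3.32-fold.

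In the days that did not choose it, Cxcl14 did not pass the test. A model with the pool of mice as block, fitted without the day 3 pool, gave an injured over contralateral log2 fold change of 0.88 ± 0.27 (SE, edgeR adjusted p = 0.0949), when 3.96% of 16434 genes were called higher and 2.03% lower. With day 3 included the log2 fold change was 1.95 ± 0.81.

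The genes with the pattern most like Cxcl14 were Fblim1, Clcf1, Sema3g, C5ar1 and Nxpe5, with Pearson r of 0.983, 0.98, 0.968, 0.966 and 0.965 over the 8 libraries, on log2(CPM + 0.5). They were the first 5 of 1078 variable genes compared, 54 of which reached an r of 0.9 or more. Clcf1, a cytokine of the interleukin-6 family, was at 5.86, 24.0 and 5.07 CPM in the injured libraries at days 1, 3 and 7 and at 1.11 to 2.26 CPM in the other 5. C5ar1, the receptor for complement fragment C5a, was at 9.18 CPM in the injured day 3 library and at 1.25 to 3.41 CPM elsewhere. The libraries share depth and time, and the likeness rests largely on the single injured day 3 library.

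Cxcl16, a membrane-bound ligand of Cxcr6 that can also take up oxidised lipoprotein, was the member called higher on the injured side than on the contralateral side by edgeR over all pools. Its level was 4.69, 9.36 and 10.2 CPM in the injured libraries at days 1, 3 and 7, and 3.62, 3.88 and 5.55 CPM in the contralateral ones. Without injury it was 8.34 CPM on the left and 5.40 CPM on the right. The injured library was the higher of its pair on every day, yet the groups overlapped, since injured day 1 lay below contralateral day 7. Against the no injury mean, the injured level was 0.682-fold, 1.36-fold and 1.49-fold at days 1, 3 and 7, and the contralateral level 0.526-fold, 0.565-fold and 0.808-fold.

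The ratio of Cxcl16 between the sides was 1.30 (0.95 to 1.77) at day 1, 2.41 (1.86 to 3.16) at day 3 and 1.84 (1.46 to 2.32) at day 7. Left over right without injury it was 1.54 (1.21 to 1.97). The log2 fold change over all pools, the no injury pool included, was 0.85 ± 0.21, or 1.80-fold (edgeR adjusted p = 0.0343). The call was lost when the left-right difference of the no injury pool entered as a further term, which left 0.25 ± 0.36 (edgeR adjusted p = 0.858). That fit called 9 of 17286 genes, against 2942 over all pools, so the lost call there says little about Cxcl16. Without the day 3, day 7 or no injury pool the call was lost too (edgeR adjusted p = 0.147, 0.169 and 0.0510), when 985, 631 and 1231 genes were called. With no replicate block Cxcl16 did not pass either (edgeR adjusted p = 0.216), when 2902 genes were called. Exons of Cxcl16 overlap those of Zmynd15 on the other strand, which had at most 48 reads.

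Cxcl12, the ligand that holds Cxcr4-bearing cells in their niches, was the most abundant member in reads and the steadiest on the injured side. The injured libraries held 46.2, 49.9 and 48.6 CPM at days 1, 3 and 7, from 946 to 1055 reads. The contralateral libraries held 63.8, 28.2 and 40.8 CPM, and the no injury libraries 51.5 and 41.7 CPM. The injured libraries spanned less than 4 CPM, and the contralateral ones lay on both sides of them.

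The ratio of Cxcl12 was accordingly 0.724 (0.665 to 0.787) at day 1, 1.77 (1.6 to 1.96) at day 3 and 1.19 (1.09 to 1.31) at day 7, while left over right without injury was 1.24 (1.13 to 1.35). Over the pools it did not pass the test, with a log2 fold change of 0.19 ± 0.24 (edgeR adjusted p = 0.643). The contralateral day 1 library, which gave the ratio below 1, is the one that stood apart for neutrophil genes, and the part of this in the ratio was not tested. Without the day 1 pool the log2 fold change was 0.51 ± 0.15 (edgeR adjusted p = 0.0620), and without the day 3 pool it was -0.10.

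Cxcl10, an interferon-inducible ligand of Cxcr3, was highest at day 7 on both sides. It was at 1.86, 2.46 and 4.31 CPM in the injured libraries, at 1.83, 1.59 and 4.14 CPM in the contralateral ones, and at 2.70 and 1.99 CPM without injury. Both day 7 libraries lay above the other 6, which ranged together. The log2 fold change was 0.22 ± 0.22 (edgeR adjusted p = 0.522). Exons of Art3, with up to 1622 reads, overlap Cxcl10 on the other strand, and no source here says whether counting used strand. Whether Cxcl10 counts hold reads of Art3 was not tested.

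Cxcl1, a neutrophil-attracting ligand of Cxcr2, had 11, 8 and 11 reads in the injured libraries, 7, 6 and 4 in the contralateral ones, and 4 and 1 without injury. The highest level was 0.537 CPM. The injured libraries all lay above the other 5, but by a handful of reads (14.6% of all genes lay above the 3 contralateral ones). Every ratio of Cxcl1 between the sides had an interval that included 1. Its log2 fold change was 0.83 ± 0.49 (edgeR adjusted p = 0.269). Cxcl13, a B cell attractant, had 5, 3 and 2 reads in the injured libraries, 2, 2 and 1 in the contralateral ones and 1 and 0 without injury, and was too low to test. Differences in Cxcl13 were not detectable at this depth.

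Cx3cl1, known as a neuronal and endothelial product, was at 5.17, 6.72 and 5.16 CPM in the injured libraries and 7.19, 5.66 and 5.98 CPM in the contralateral ones. Without injury it was at 8.87 and 7.39 CPM, the 2 highest of the 8 values. The sides overlapped, and the ratio was below 1 at days 1 and 7 (0.720 and 0.863) and 1.19 at day 3. Neither the side, with a log2 fold change of -0.15 ± 0.16 (edgeR adjusted p = 0.546), nor the operated mice's contralateral ganglia against no injury, with -0.37 ± 0.21 (edgeR adjusted p = 0.9999), passed the test.

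**Figure D2:**
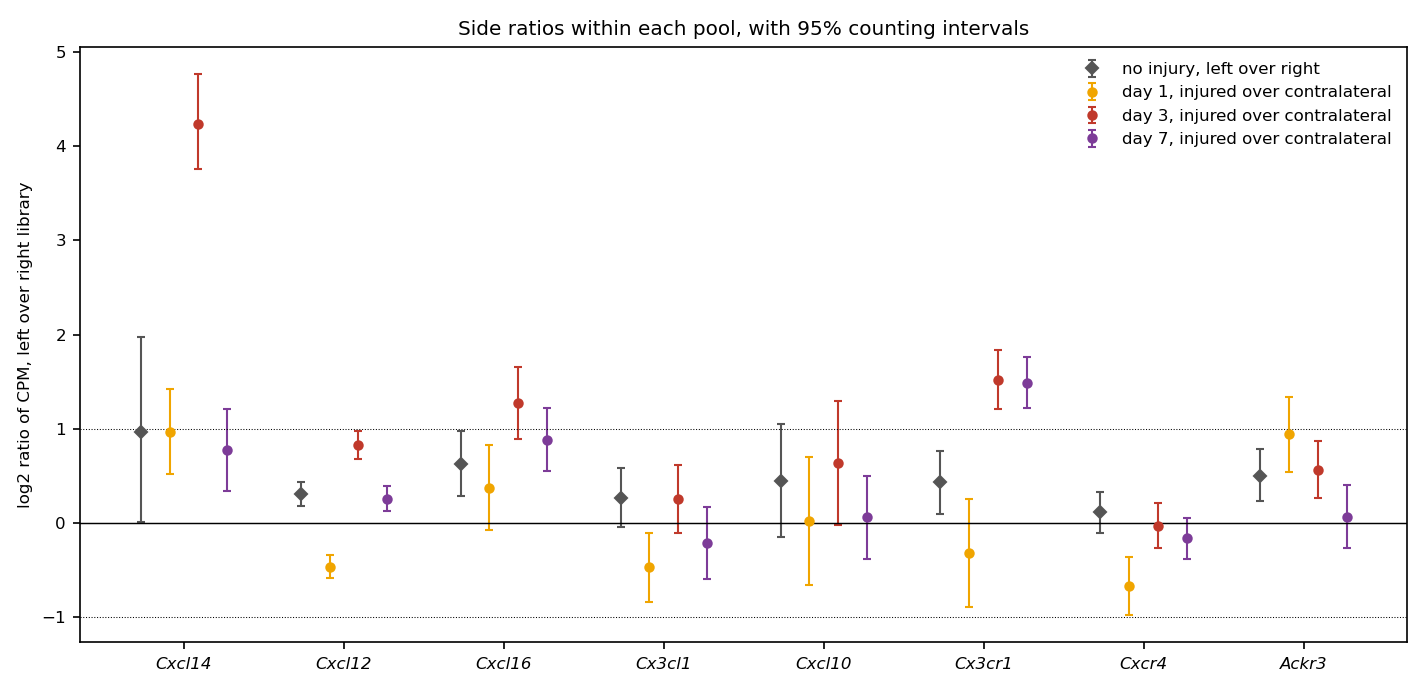
Log2 ratio of the injured over the contralateral library at days 1, 3 and 7 (circles), and of left over right without injury (diamonds), for 8 genes, without Cxcl1 and Cxcl13, which have too few reads. Bars are 95% exact intervals for counting error only and dotted lines mark 2-fold. Cxcl14 at day 3 stands apart at a log2 ratio of 4.24, a fold of 18.9.

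Cx3cr1, the fractalkine receptor of monocytes, macrophages and microglia, had the widest swing among the receptors. Its level in the injured libraries was 2.29, 15.4 and 20.8 CPM at days 1, 3 and 7. The contralateral libraries held 2.87, 5.38 and 7.44 CPM, and the no injury libraries 8.39 and 6.24 CPM. Both day 1 libraries lay below all others, and injured days 3 and 7 lay above all others. In RNA from a whole ganglion, fewer cells of a type and less RNA per cell cannot be told apart.

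Between the sides Cx3cr1 differed by 0.801 (0.536 to 1.19) at day 1, 2.86 (2.30 to 3.57) at day 3 and 2.80 (2.33 to 3.38) at day 7, and left over right without injury by 1.35 (1.07 to 1.70). Against the no injury mean, the injured level was 0.314-fold at day 1 and 2.85-fold at day 7, and the contralateral level moved from 0.392-fold to 1.02-fold. Over the pools the log2 fold change was 1.05 ± 0.35, which did not pass by edgeR (adjusted p = 0.0992) and passed by DESeq2 (0.95 ± 0.33, adjusted p = 0.0340), which called 7.81% of genes higher and 6.69% lower. Without the day 1 pool it was 1.48 ± 0.15 (edgeR adjusted p = 9.9e-05), when 14.5% of genes were called higher and 13.9% lower. By edgeR it did not pass without the day 3, day 7 or no injury pool (adjusted p = 0.383, 0.406 and 0.139). Nor did it pass with no filter on low counts (edgeR adjusted p = 0.346) or no replicate block (edgeR adjusted p = 0.246). With side as a further term it was 0.63 (edgeR adjusted p = 0.810), when 9 of 17286 genes were called.

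Macrophage genes, like Cx3cr1, were highest in the injured day 3 and day 7 libraries, though not in the same order. The 18 macrophage markers summed to 120.2, 500.8 and 479.0 CPM in the injured libraries, 164.1, 134.5 and 236.2 CPM in the contralateral ones, and 238.3 and 169.4 CPM without injury. None of them was at 0 in all libraries. The genes most like Cx3cr1 were Csf1r (r = 0.986), Spink10 (0.984), Adgre1 (0.984), Gpr34 (0.976) and Sdk1 (0.969), of which Csf1r, Adgre1 and Gpr34 are macrophage or microglia genes. Reads of Cx3cr1 per read of a macrophage gene ranged over the 8 libraries from 0.222 to 0.375 for Csf1r, from 1.31 to 5.79 for Aif1 and from 0.281 to 1.29 for Tyrobp. These 3 genes were chosen after values were seen, Csf1r is the gene most like Cx3cr1, and the part of macrophage content in the Cx3cr1 values was not tested.

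Cxcr4, the signalling receptor for Cxcl12, was lower on the injured side of every pair by small amounts. It was at 6.78, 14.0 and 16.1 CPM in the injured libraries and 10.8, 14.3 and 18.1 CPM in the contralateral ones. The no injury libraries held 16.9 and 15.7 CPM. The lowest value was injured day 1, and both sides were higher at day 7 than at day 1. Only the day 1 ratio, 0.628 (0.505 to 0.779), lay beyond counting error, and at days 3 and 7 it was 0.978 (0.831 to 1.15) and 0.891 (0.768 to 1.03). The log2 fold change was -0.28 ± 0.12 (edgeR adjusted p = 0.136).

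Ackr3, the scavenging receptor that removes Cxcl12, went the other way from Cxcr4 at day 1. It was at 7.47, 10.8 and 7.43 CPM in the injured libraries, 3.90, 7.30 and 7.11 CPM in the contralateral ones, and 12.5 and 8.82 CPM without injury. The injured libraries lay above all contralateral ones, as for 14.6% of all genes, by a narrow margin at day 7. The contralateral day 1 library was the lowest of the 8. The ratio was 1.92 (1.46 to 2.53) at day 1, 1.48 (1.20 to 1.82) at day 3 and 1.05 (0.831 to 1.32) at day 7, beside 1.42 (1.17 to 1.72) for left over right without injury. The log2 fold change of 0.50 ± 0.20 did not pass the test (edgeR adjusted p = 0.125).

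Among members with at least 50 reads in a pair, and leaving out Cxcl14, 6 of 7 were higher on the injured side at day 3, with a median log2 ratio of 0.63, when 56.4% of all genes were. The counts were 2 of 6 at day 1 (46.9% of all genes, median -0.39) and 5 of 7 at day 7 (51.1%, median 0.06). Ratios of at least 2-fold were reached by Cx3cr1 and Cxcl16 at day 3 (background 6.97%), by Cx3cr1 at day 7 (3.27%) and by none of these members at day 1 (0.859%). No member was 2-fold lower on any day, when 1.71%, 0.981% and 0.785% of genes were at days 1, 3 and 7.

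Without injury, all 7 members with at least 50 reads were higher on the left than on the right, with a median log2 ratio of 0.43, when 55.5% of all genes were above 1 and the median of all genes was 0.02. None reached 2-fold in either direction (0.44% of all genes were 2-fold higher and 0.493% lower). These 2 libraries have no replicate. Summed levels of neutrophil genes, at 295.5 CPM on the left and 80.7 CPM on the right, macrophage genes, at 238.3 and 169.4 CPM, and fibroblast genes, at 1877 and 1728 CPM, were also higher on the left. Skeletal muscle genes were the reverse, at 143.1 CPM on the left and 1021 CPM on the right, as were Schwann cell genes, at 6153 and 8053 CPM. Erythroid genes, at 374.3 and 636.1 CPM, neuronal genes, at 18360 and 18900 CPM, and adipocyte genes, at 17.8 and 19.7 CPM, were also lower on the left. The part of these lists in the members' difference was not tested.

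**Figure D3:**
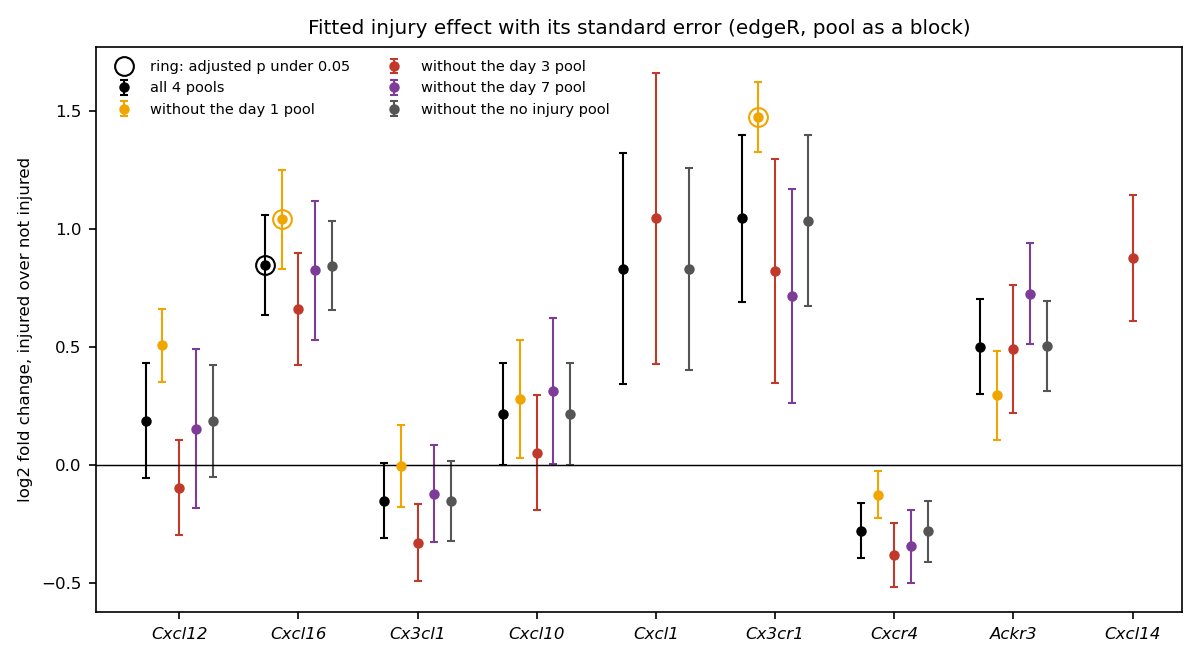
Injured over contralateral log2 fold change with its standard error, with the pool as block, from all 4 pools (the no injury pool included) and without each pool in turn, with a ring where the adjusted p was under 0.05. Cxcl14 is shown only without the day 3 pool (0.88 ± 0.27), and with all pools the ring marks Cxcl16 alone, at 0.85 ± 0.21.

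Over all pools, the no injury pool included, 1 of the 8 members tested besides Cxcl14 was called higher (Cxcl16) and none lower. Of 16675 genes, 9.9% were called higher and 7.75% lower, so the share of members called was near the background. The members' median log2 fold change was 0.36, against 0.02 for all genes tested. In the fit of the operated pools alone, none of these members was called, when 782 of 16479 genes were called higher and 449 lower. Within pairs, Cxcl1, Cxcl10, Cxcl16 and Ackr3 were higher on the injured side in 3 of 3 pools (28.3% of all genes were) and Cxcr4 lower in 3 of 3 (25.7%). By unpaired position, Cxcl1 and Ackr3 lay above all contralateral libraries in all injured ones (14.6% of all genes did), and no member lay below (15.4%).

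The size of the injury effect was also fitted against the log2 of the day. No gene passed by edgeR (0%), with 603 higher and 721 lower at an unadjusted p under 0.05, and DESeq2 called 34 and 10 genes, none of them a member. Among the members besides Cxcl14, Cx3cr1 had the lowest p, with a slope of 0.61 ± 0.19 on the log2 scale for each doubling of time (edgeR adjusted p = 0.515), and Ackr3 had a slope of -0.32 ± 0.14 (edgeR adjusted p = 0.627). Without the day 3 pool Cx3cr1 passed the threshold, at 0.63 ± 0.13 (edgeR adjusted p = 0.0296), when 1.45% of genes were called higher and 1.2% lower. Without the day 7 pool Cx3cr1, at 1.11 ± 0.23, and Cxcl12, at 0.76 ± 0.12, did (edgeR adjusted p = 0.0219 and 0.0110), when 3.24% were called higher and 2.93% lower. With a day left out, each remaining day is 1 pair of libraries and the residual spread comes from the no injury pair alone, so these values do not show a trend beyond replicate error.

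In the contralateral libraries against the no injury ones, none of the 8 members tested besides Cxcl14 passed, when 0.0812% of 17245 genes were called higher and 0.0754% lower. Ackr3, at -0.79 ± 0.35 (edgeR adjusted p = 0.947), came closest. For Cxcl14, whose contralateral day 3 level entered its choice, the levels are a description: 1.68 to 3.39 CPM contralaterally and 0.693 and 1.35 CPM without injury.

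Of 17 other genes of the CXC, CX3C and XC family, 8 passed the low-count filter, and edgeR called none in either direction over all pools. The platelet and macrophage chemokine Pf4 had the lowest p, with 4.93, 9.60 and 3.22 CPM in the injured libraries against 3.66, 2.01 and 1.74 CPM contralaterally and 2.89 and 3.23 CPM without injury. Its day 3 ratio was 4.78 (3.42 to 6.80), and its log2 fold change was 1.18 ± 0.33 (edgeR adjusted p = 0.0517). Pf4 passed by DESeq2 (adjusted p = 0.0193), by edgeR with no filter on low counts (adjusted p = 0.0476) and by edgeR without the day 1 pool (1.61 ± 0.30, adjusted p = 0.00473), where Ppbp, a platelet chemokine, passed as well (1.83 ± 0.58, adjusted p = 0.0414). With median-of-ratios size factors, no replicate block or a side term, edgeR called none of the family genes. It also called none without the day 3, day 7 or no injury pool. Cxcr6, the receptor for Cxcl16, had 4, 9 and 16 reads in the injured libraries, 2, 1 and 8 in the contralateral ones and 12 and 8 without injury, and a log2 fold change of 1.44 ± 0.54 (edgeR adjusted p = 0.1001). Cxcl2, a further ligand of Cxcr2, had 4, 12 and 27 reads in the injured libraries, 3, 0 and 13 in the contralateral ones and 1 and 0 without injury (edgeR adjusted p = 0.162).

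Cxcr2, the neutrophil receptor for Cxcl1, was at 1.12, 1.18 and 0.805 CPM in the injured libraries and 5.45, 0.608 and 1.55 CPM in the contralateral ones. Without injury it was at 2.70 CPM on the left and 0.647 CPM on the right, a ratio of 4.175 (2.29 to 8.12). Its peak was in the contralateral day 1 library (log2 fold change of the injury effect -0.92 ± 0.77, edgeR adjusted p = 0.460). Ackr1, the atypical receptor of venules and red cells, was at 90.3 to 98.6 CPM in the 6 libraries of operated mice and 74.2 and 85.0 CPM without injury. Its exons overlap those of Cadm3, with up to 18620 reads, so its level is uncertain. Cxcl11, with 13 to 21 reads in every library, was flat. Cxcl15 and Cxcl17 had no read in any library, which allows up to 0.146 CPM in each.

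Of 17 tested genes that process or relay chemokine signals, 4 were higher on the injured side and 2 lower, beside 9.9% and 7.75% of all genes, with a median log2 fold change of 0.21. Arrb1, an arrestin that uncouples receptors from G proteins, rose by 0.52 ± 0.08 (edgeR adjusted p = 0.00707), and the receptor kinase Grk6 rose by 0.38 ± 0.07 (edgeR adjusted p = 0.0133). The related kinase Grk2 fell by 0.34 ± 0.07 (edgeR adjusted p = 0.0170).

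Many genes of the pathways known to induce such ligands passed the test. Of 16 NF-kappa-B feedback genes and inducers tested, 10 were higher and none lower, with a median of 0.61, led by Il1r1, the interleukin-1 receptor, at 0.90 ± 0.09 (edgeR adjusted p = 0.00186). Of 20 interferon-induced genes, 10 were higher and none lower, with a median of 0.53, led by Irf7 at 0.86 ± 0.11 (edgeR adjusted p = 0.00345). Of all genes, 9.9% were called higher and 7.75% lower. In the injured libraries at days 1, 3 and 7, the NF-kappa-B list summed to 256.3, 288.1 and 257.7 CPM and the interferon list to 581.7, 492.2 and 417.6 CPM. The part of either pathway in the members' values was not tested.

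Marker lists of the cells a ganglion can hold moved as well, and their part in the members' values was not tested. Beside 9.9% of all genes called higher and 7.75% lower, of 18 macrophage genes 5 were higher and none lower (median 1.08), and of 12 fibroblast and meningeal genes 4 were higher and none lower (median 0.56). Fibroblast genes summed to 911.8, 2403 and 1749 CPM in the injured libraries, 795.4, 885.3 and 1337 CPM in the contralateral ones, and 1877 and 1728 CPM without injury. They, like the macrophage genes, were highest in the injured day 3 library, whose Cxcl14 value chose that gene. So were the NF-kappa-B list, at 288.1 CPM, and the adipocyte genes, at 27.7 CPM. No other operated library lay above both no injury libraries for the fibroblast genes. Of 12 neuronal genes 5 were lower and none higher (median -0.31), and of 12 endothelial and mural genes Kdr alone was higher. P2ry12 and Tmem119 were higher among 6 microglia-like genes (median 0.555), and 2 of 10 Schwann cell genes were higher (median 0.335), with none lower in either list. Among 8 satellite glia genes 1 was higher and 1 lower. Cd79a was lower among 6 genes of T, B and NK cells, and 1 of 5 adipocyte genes was higher. No muscle or erythroid gene was called. No neutrophil gene of 12 passed the test (median -1.002), and Mpo was at 24.1 CPM in the contralateral day 1 library and at most 1.83 CPM in the others. Ly6g, the neutrophil gene of lowest p, went the other way (log2 fold change 1.48 ± 1.07, edgeR adjusted p = 0.390). Its level was 0.704 CPM in the contralateral day 1 library and 2.98 and 4.73 CPM in the injured libraries at days 3 and 7.

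**Figure D4:**
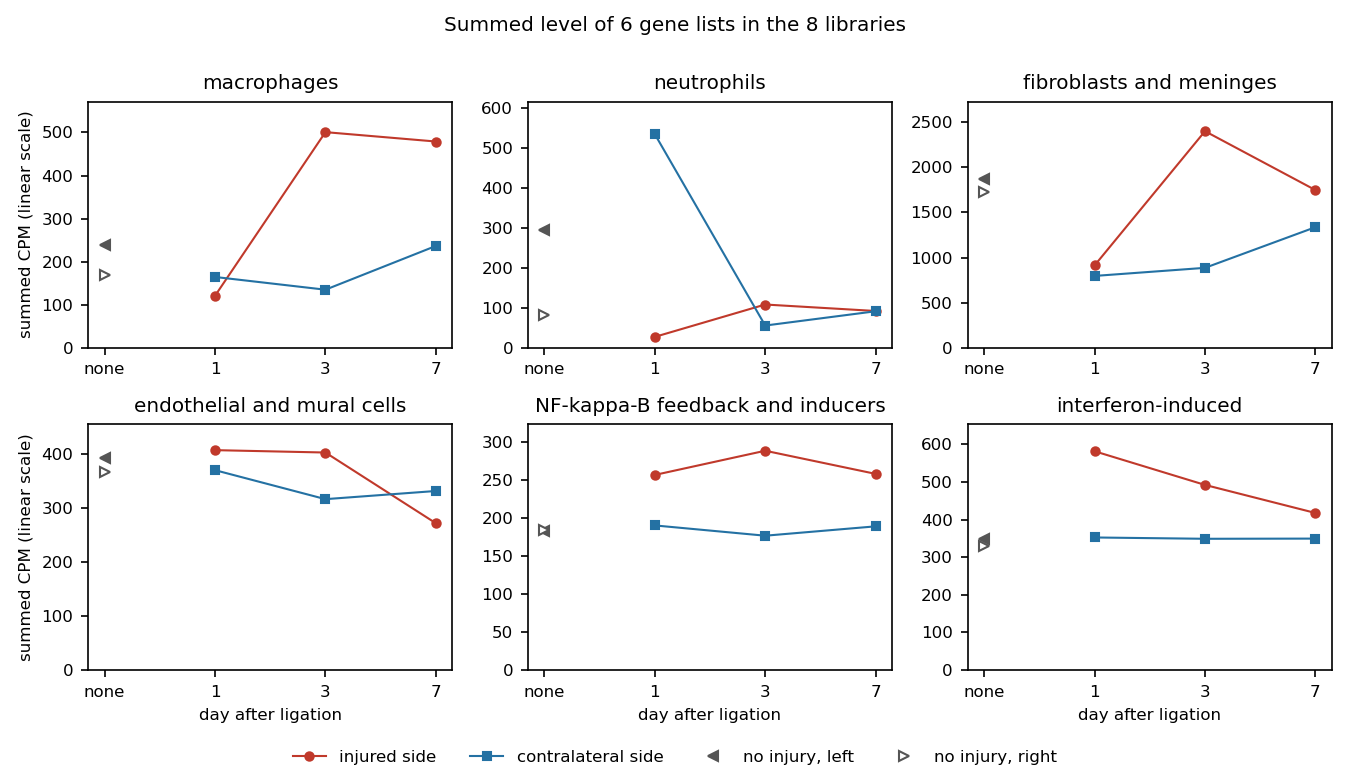
Summed CPM of 6 marker and pathway lists in the 8 libraries, by day, with 1 point per library (circles injured, squares contralateral, triangles no injury) and a linear axis per panel. Lines join the days of a side. Macrophage genes reached 500.8 CPM at injured day 3 and neutrophil genes 535.2 CPM in the contralateral day 1 library.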

How the data were processed

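RNA from 8 libraries of mouse lumbar dorsal root ganglia was sequenced. The deposited values are raw read counts per gene. Per the submitters' processing notes, cutadapt 1.16, STAR 2.5.4a, featureCounts 1.6.3, DESeq2 and the build GRCm38 were used. Whether counting used strand, and which annotation: not given in the sources used here. Of 53801 gene identifiers, 53706 were matched to GENCODE M21 for names and positions. Counts were divided by library totals (CPM). Ratios between sides have 95% exact conditional binomial intervals for counting error only.

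Tests used edgeR 4.0.16 in R 4.3.3 (TMM, filterByExpr with a minimum count of 10, robust quasi-likelihood fit, Benjamini-Hochberg adjusted p, threshold 0.05), with the pool of mice as block for injured against contralateral (3 residual degrees of freedom) and for the trend with log2 of the day (2), and without block for contralateral against no injury (4). The SE given with an edgeR value is the absolute log2 fold change divided by the square root of its quasi-likelihood F statistic. The SE given with a DESeq2 value is the one DESeq2 reports. The pairing comes from the design text, in which mice are their own controls. DESeq2 1.42.0, other size factors, no filter, no block, a side term and leaving out each pool were alternatives. Nothing says that the 2 no injury libraries come from separate animals. No 2 libraries agreed within sampling noise (lowest chi-square per degree of freedom 6.46). The fits were tested on simulated data. The members, gene lists and tests were chosen with earlier results of these data known. All members were named, as were other family genes with at least 10 reads in a library, up to 3 genes of lowest p per list, and the 5 genes most like Cxcl14, Cxcl1 and Cx3cr1. The latter were required to have a mean of at least 1 CPM and an SD of at least 0.5 on log2(CPM + 0.5). Those most like Cxcl1, with r from 0.924 to 0.977, were Pnlip, Cchcr1, Pkib, Batf3 and Ifrd1.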

Additional observations from a re-analysis of the deposited data

Results flagged for a closer look

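The Cxcl12 ratio of injured to contralateral side lay on both sides of 1 by more than counting error: it was 0.724 at day 1, 1.77 at day 3 and 1.19 at day 7. With 1 pair of libraries a day the difference between days has no replicate, and the trend of the effect with the day did not pass the test (0.27 ± 0.20 for each doubling of time, edgeR adjusted p = 0.815). The injured libraries held 46.2 to 49.9 CPM and the contralateral ones 28.2 to 63.8 CPM.

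Ppbp, a platelet chemokine of the same family, was 0.115 times the contralateral level on the injured side at day 1 and 7.92 times at day 3. The contralateral day 1 library held 13.6 CPM and the other 7 libraries 0.185 to 2.22 CPM. The trend with the day was 1.80 ± 0.83 (edgeR adjusted p = 0.706). Without the day 1 pool, the injured side was higher over the pools by a log2 fold change of 1.83 ± 0.58 (edgeR adjusted p = 0.0414), against -0.51 ± 1.32 with it. The contralateral day 1 library is also the one with the highest neutrophil and Mpo levels, and the part of this in the ratio was not tested.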

How the results depend on the processing

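One library per side and day limits every result, and counts near 10 reads (Cxcl1, Cxcl13) limit those genes. The injury effect was called for 2942 genes and for 1 member besides Cxcl14. The members called were 2 by DESeq2, 0 with no replicate block (which called 2902 genes) and 0 with side as a further term (9 genes), and leaving out 1 pool at a time gave 631 to 4669 genes and 0 to 2 members. The trend, with 0 genes called, gave 9 with median-of-ratios size factors, 44 by DESeq2, 32 with no filter, and 0 to 1053 genes and 0 to 2 members without 1 pool. Contralateral against no injury, with 27 genes called, gave 72 by DESeq2, 54 with no filter, 42 with the no injury libraries as 2 samples, and 11 to 197 genes and 0 members without 1 pool. With at least 20 reads in place of 50, genes past 2-fold were 206 higher and 431 lower at day 1, 233 lower at day 3, 203 lower at day 7, and 154 higher and 119 lower without injury. Some log2 values changed sign, with no test passed where they did. With the side term, the injury effect was -1.08 for Cxcl1, -0.199 for Cxcl10 and -0.094 for Cxcl12. With the day itself, the trend was -0.16 for Cxcl14 and -0.023 for Cxcl10. Leaving out 1 pool at a time, the injury effect of Cxcl12 ranged from -0.096 (without day 3) to 0.509 (without day 1). The trend ranged from -2.81 (without day 1) to 2.02 for Cxcl14, which was -0.08 without day 3. It ranged, lowest without day 1 and highest without day 7, from -0.437 to 0.334 for Cxcl10, -0.437 to 0.763 for Cxcl12, -0.289 to 0.515 for Cxcl16, -0.346 to 0.404 for Cx3cl1 and -0.081 to 0.353 for Cxcr4, and for Cxcl1 from -0.223 (without day 7) to 0.86 (without day 1). Against no injury, Cxcr4 ranged from -0.358 to 0.002 (without day 1), Cxcl12 from -0.427 to 0.169 (without day 3) and Cxcl10 from -0.436 (without day 7) to 0.352. The cause of these changes was not tested. The prior count of 2 that put Cxcl14 at rank 1 was added after seeing the data. With a pseudocount of 0.1 the genes most like Cxcl14 were the same 5, and 3 and 4 of 5 were kept for Cxcl1 and Cx3cr1.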

Other observations

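Further family genes with low counts, among them neutrophil-attracting ligands, are listed here by library. Cxcl5, an epithelial ligand of Cxcr2, had 18 reads in the injured day 1 library and 1 to 4 in each of the other 7. Cxcl3 had 2, 7 and 11 reads in the injured libraries at days 1, 3 and 7, 0, 0 and 10 in the contralateral ones, and none without injury. Cxcl9, an interferon-inducible ligand of Cxcr3, had 5, 10 and 5 reads in the injured libraries, 2, 3 and 14 in the contralateral ones, and 16 and 10 without injury. Cxcr3 itself had 2, 6 and 12 reads in the injured libraries, 2, 1 and 7 in the contralateral ones, and 6 and 3 without injury. These genes are described by their reads only, and no test is given.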
